A study of Homo sapiens with 12 samples.

Results

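ZNF560 and ZNF562 are zinc-finger genes that lie close together on the short arm of human chromosome 19, in band 19p13.2, and both stood far higher in human embryonic stem cells (hESCs) lacking UBQLN1 than in wild-type cells. They are described here with their neighbours ZNF699, ZNF559, ZNF177, ZNF266, ZNF426, ZNF121, ZNF561 and ZNF846, which makes 10 genes of the 28278 in the count table. The genes were chosen from the contrast between knockout (KO) and wild-type (WT) cells, so their values in that contrast are given as a description with no test. The other 8 genes were taken as neighbours of these 2.

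RNA-sequencing counted reads per gene in WA26 hESCs, an established line, in 4 groups of 2 libraries. The groups were WT cells at normal O2, KO cells at normal O2, KO cells at low O2 (5%), and KO cells treated with the antioxidant N-acetylcysteine (NAC). The labels give neither the times of treatment nor the O2 level of the NAC cells. The paper describes RNA-seq after hours at low O2, and its scheme of many passages with NAC or low O2 also leads to RNA-seq. Agent and time of exposure therefore cannot be told apart between these groups. The labels list no agent for the WT and KO cells at normal O2, and whether they received the DMSO that the study describes as the control for NAC is not stated, so NAC cannot be told apart from any effect of a vehicle. The KO cells carry CRISPR-Cas9 edits of UBQLN1, which encodes ubiquilin 1, a carrier of ubiquitinated proteins to the proteasome. The study's methods describe picking a clone after editing, and its figures show 2 clones of each genotype. A figure legend on its RNA-seq at low and normal O2 calls the replicates biological. The labels do not say whether the libraries of a group came from separate clones or cultures. A difference between KO and WT therefore cannot be told apart from a difference between clones.

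KRAB zinc-finger genes encode DNA-binding proteins whose row of C2H2 fingers reads a DNA sequence and whose KRAB domain recruits the corepressor TRIM28 (KAP1), and through it histone methylation and heterochromatin proteins. Many of their targets are transposable elements, and the family is active in pluripotent cells. The genes sit in clusters that grew by tandem duplication, most of them on chromosome 19, so neighbours can resemble each other in sequence and reads can match more than one of them. Which of the genes described here encode a KRAB domain was not examined, only their finger patterns.

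The library totals ran from 31236968 to 41639350 counts. UBQLN1 had 7382 and 7591 counts in the WT libraries against 1559 and 1789 in the KO libraries at normal O2, a log2 fold change of −2.29 (SE 0.12, edgeR adjusted p = 2.52e-06), so every KO library kept some UBQLN1 reads. All 15 embryonic stem cell markers were above 1 CPM (counts scaled to a common library size) in all 8 libraries, with summed levels of 6390 to 7560 CPM. Endoderm markers summed to 1.74 to 4.46 CPM, with SOX17 and TTR at 0, and none of the 9 was above 1 CPM in every library. Mesoderm markers summed to 60.2 to 129 CPM (2 of 9 above 1 CPM in every library), neuroectoderm markers to 770 to 1330 CPM (6 of 10, NEUROG2 at 0) and fibroblast markers to 512 to 937 CPM (4 of 9).

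The 10 genes span 495.0 kb of chromosome 19, from 9291140 to 9786160 in GRCh38. In RefSeq order they are ZNF699 (9291140 to 9309838), ZNF559 (9323772 to 9345871), ZNF177 (9363013 to 9382617), ZNF266 (9412429 to 9435573), ZNF560 (9445876 to 9506692), ZNF426 (9523223 to 9538645), ZNF121 (9560329 to 9584504), ZNF561 (9607329 to 9621232), ZNF562 (9641807 to 9675100) and ZNF846 (9748619 to 9786160). ZNF559 and ZNF177 are on the plus strand and the other 8 on the minus strand. ZNF560 and ZNF562 are not next to each other, since ZNF426, ZNF121 and ZNF561 lie between them. The longest open reading frames of their canonical Ensembl transcripts held between 6 copies of the C2H2 finger pattern (ZNF562) and 14 (ZNF699), with 13 in ZNF560, so the genes all encode finger arrays but of unequal length.

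Promoter sequences are shown for the 5 genes whose promoters share a run of 12 bases, because they include both of the genes that stood apart in KO cells as well as neighbours that did not. RefSeq promoters were found for 9 of the 10 members, all but ZNF559. Each sequence below is the 250 bases before the start site on the minus strand of GRCh38.p14, written 5′ to 3′, and the capitals mark the shared run CGGAAGTGACGT. The windows are chr19:9498617-9498866 for ZNF560, chr19:9675101-9675350 for ZNF562, chr19:9621233-9621482 for ZNF561, chr19:9584505-9584754 for ZNF121 and chr19:9435574-9435823 for ZNF266.
ZNF560: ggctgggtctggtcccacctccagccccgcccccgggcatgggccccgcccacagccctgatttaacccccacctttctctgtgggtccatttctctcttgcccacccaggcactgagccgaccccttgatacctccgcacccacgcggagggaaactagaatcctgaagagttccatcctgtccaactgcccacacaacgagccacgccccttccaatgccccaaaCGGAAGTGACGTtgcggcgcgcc
ZNF562: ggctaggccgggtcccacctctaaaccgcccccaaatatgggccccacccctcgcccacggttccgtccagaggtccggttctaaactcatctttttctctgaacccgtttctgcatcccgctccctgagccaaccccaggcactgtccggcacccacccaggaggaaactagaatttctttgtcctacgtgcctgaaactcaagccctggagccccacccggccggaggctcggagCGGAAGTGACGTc
ZNF561: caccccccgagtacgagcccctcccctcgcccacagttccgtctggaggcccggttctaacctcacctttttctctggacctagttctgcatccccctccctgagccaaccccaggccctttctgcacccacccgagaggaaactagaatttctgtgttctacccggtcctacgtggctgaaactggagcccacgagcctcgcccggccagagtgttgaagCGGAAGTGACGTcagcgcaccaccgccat
ZNF121: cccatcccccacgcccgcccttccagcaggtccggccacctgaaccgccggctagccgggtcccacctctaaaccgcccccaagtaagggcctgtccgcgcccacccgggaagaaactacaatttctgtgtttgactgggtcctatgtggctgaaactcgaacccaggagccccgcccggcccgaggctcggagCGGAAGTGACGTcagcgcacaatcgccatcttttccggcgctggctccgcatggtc
ZNF266: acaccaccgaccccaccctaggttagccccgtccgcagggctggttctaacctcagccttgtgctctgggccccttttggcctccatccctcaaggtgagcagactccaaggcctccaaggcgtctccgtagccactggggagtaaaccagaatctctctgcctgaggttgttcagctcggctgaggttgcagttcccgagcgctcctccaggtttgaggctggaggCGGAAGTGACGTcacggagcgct
The capitals start 23 bases before the start site in ZNF560 and ZNF266, 13 bases before it in ZNF562, 29 in ZNF561 and 56 in ZNF121. It is the longest run found in at least 5 of the 9 promoters, and it was looked for after the sequences had been read. It contains GGAA, the core letters of ETS factor sites, and TGACG, the start of a cAMP response element. On either strand it was in 0.199% of all 35116 promoters of the same length (70 promoters) and in 0 of the 547 promoters of other ZNF genes. Since ZNF561, ZNF121 and ZNF266 hold it as well, its presence did not separate ZNF560 and ZNF562 from their neighbours.

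The promoters resemble one another beyond that run. Of the 36 pairs of member promoters, ZNF561 and ZNF562 had the most identical bases, 188 of 224 aligned (83.9%). ZNF560 matched ZNF562 at 157 of 221 aligned bases (71.0%), the sixth pair in that order, and ZNF561 at 150 of 211 (71.1%). The closest promoter to that of ZNF562 therefore belongs to ZNF561, whose level in KO cells was close to that in WT cells.

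Other short motifs were counted on both strands of the 9 promoters. TATAAA was in none of them (10.7% of all promoters), CCAAT in 3 (32.0%) and GGGCGG in 5 (42.6%). ACGTG, the core letters of a hypoxia response element, was in those of ZNF561 and ZNF562 (18.5% of all promoters). TGACNNNGC, the letters of an antioxidant response element, was in those of ZNF699 and ZNF560 (10.9%), and in ZNF560 it overlaps the shared run. CG dinucleotides numbered 14 in the ZNF560 promoter and 15 in those of ZNF561 and ZNF562, against a median of 11 over all promoters. The annotated gene of ZNF560 reaches 8.1 kb beyond the start site of this promoter, so it is not the only annotated start. A match to a motif is a description of the letters and not of a bound site.

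ZNF560 was at the edge of detection in WT cells and clearly expressed in every KO library. Its counts were 3 and 6 in the WT libraries, 355 and 419 in the KO libraries at normal O2, 484 and 315 at 5% O2 and 644 and 401 with NAC. The mean level was 0.123 ± 0.0464 CPM (SD, n = 2) in WT cells and 9.90 ± 0.393 CPM (SD, n = 2) in KO cells at normal O2. The 6 KO libraries all lay above both WT libraries. By counts, the ratio of KO to WT was 79.2 (exact 95% interval 41.5 to 174, from 774 against 9 counts), where the interval covers counting error only. The fitted log2 fold change was 6.27 (SE 0.30).

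ZNF562 was low but detected in WT cells. Its counts were 32 and 38 in the WT libraries, 636 and 609 in the KO libraries at normal O2, 662 and 426 at 5% O2 and 844 and 519 with NAC. The mean level was 0.972 ± 0.0185 CPM (SD, n = 2) in WT cells and 16.01 ± 1.73 CPM (SD, n = 2) in KO cells at normal O2, again with every KO library above both WT libraries. The count ratio was 16.4 (exact 95% interval 12.9 to 21.2, from 1245 against 70 counts) and the fitted log2 fold change 4.04 (SE 0.21).

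The gene between ZNF121 and ZNF562 gave a different picture. ZNF561 was at 49.9 and 51.1 CPM in the WT libraries and at 48.5 and 49.02 CPM in the KO libraries at normal O2, a log2 fold change of −0.05 (SE 0.09). ZNF121, next to ZNF561, was at 26.8 and 30.7 CPM in WT cells and at 36.8 and 36.9 CPM in KO cells, a log2 fold change of 0.36 (SE 0.16). ZNF426, next to ZNF560, was at 18.2 and 21.6 CPM in WT cells and at 25.1 and 23.95 CPM in KO cells, a log2 fold change of 0.30 (SE 0.16). So the 3 genes that lie between ZNF560 and ZNF562 differed from WT by far less than either of them.

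On the other side of ZNF560, ZNF266 was at 14.0 and 16.02 CPM in the WT libraries and at 12.6 and 14.1 CPM in the KO libraries, which overlap. ZNF559 was at 15.0 and 12.7 CPM in WT cells and at 9.87 and 10.4 CPM in KO cells, with a log2 fold change of −0.45 (SE 0.14). ZNF699, at the end of the span, was at 3.48 and 5.13 CPM in WT cells and at 4.23 and 3.91 CPM in KO cells. At the opposite end, ZNF846 had 29 and 49 counts in the WT libraries and 36 and 25 in the KO libraries, which overlap. None of these neighbours had the large difference seen for ZNF560 and ZNF562.

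**Figure D1:**
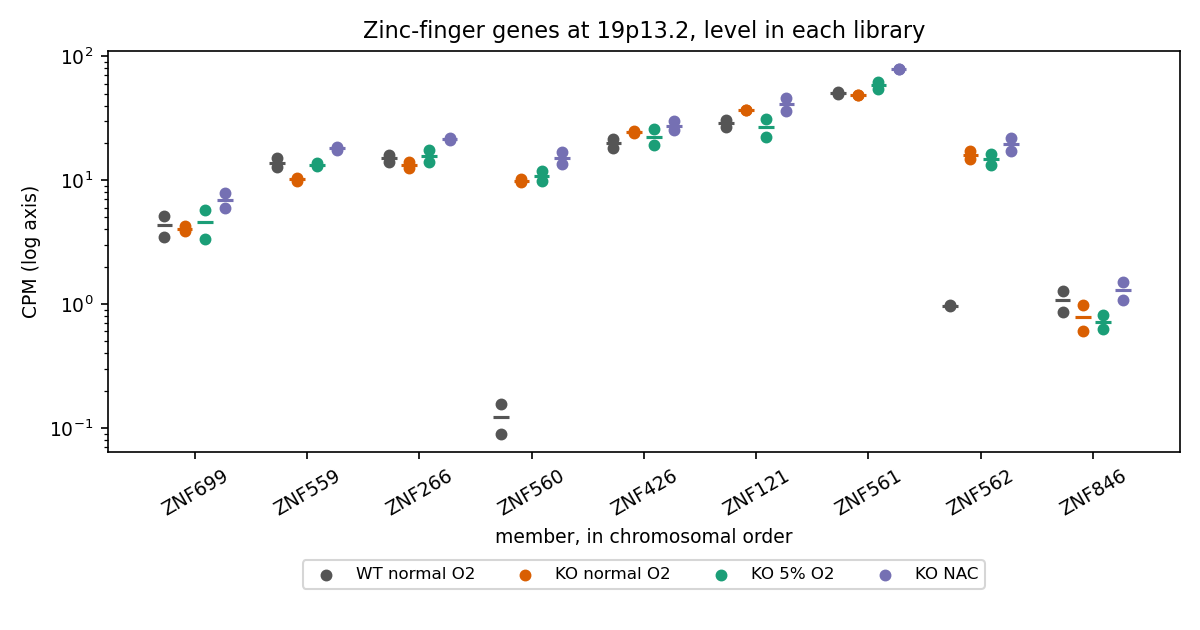
Level of the 9 tested members in each library, in CPM on a log axis, with members in chromosomal order. Points are libraries (2 per group), short lines are group means and colours are the 4 groups. ZNF560 and ZNF562 are the members whose WT points, at 0.0899 to 0.156 CPM and 0.959 to 0.985 CPM, lie far under all of their KO points.

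ZNF177 had 0 counts in all 8 libraries, where a count of 0 allows up to 3 counts in a library. In the GENCODE annotation, 90.6% of its exonic bases also belong to other genes. The readthrough gene ZNF559-ZNF177, which itself had 0 to 4 counts per library, overlaps it the most. Reads that fall on both genes are left out by the counting tool at its default settings, so this table gives no usable level for ZNF177. It is the one member that was not tested. ZNF560 passed the filter on low counts through its KO libraries alone, since both WT libraries were under 10 counts.

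The members also differ in how many of their reads could be assigned to them. For ZNF560, 0.68% of the 31-base words of its canonical Ensembl transcript were found elsewhere in the primary genome and none of its exonic bases belonged to another gene. For ZNF562 the share of words was 30.5%, and 50.7% of its exonic bases lie within other genes in GENCODE. The gene with the largest overlap there was ZNF561-AS1, an antisense gene whose RefSeq span, 9621482 to 9634862, does not reach ZNF562. ZNF561-AS1 had 138 and 182 counts in the WT libraries and 132 and 119 in the KO libraries at normal O2. The annotation behind the counting is not given, so whether these counts cover the stretch over ZNF562 is not known. Antisense reads over that stretch therefore cannot be judged from them. The shares of words were 29.1% for ZNF561, 18.9% for ZNF846, 17.7% for ZNF426, 13.1% for ZNF121 and under 10% for the rest, and reads made only of such words match several places, which the counting tool leaves out by default.

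Levels were compared between genes after dividing CPM by transcript length. In WT cells ZNF561 came first with 11.2 CPM per kb, followed by ZNF266 (4.24), ZNF121 (4.12), ZNF559 (2.97), ZNF426 (2.80), ZNF699 (0.637), ZNF846 (0.251), ZNF562 (0.0769) and ZNF560 (0.0436). The ranges of 1 SD around the means overlapped for ZNF266 and ZNF121, and for ZNF559 and ZNF426. In KO cells at normal O2 ZNF561 was still first, with 10.8 CPM per kb. There ZNF560 was the fourth of the 9, with 3.52 CPM per kb. Its range of 1 SD around the mean overlapped those of ZNF266 (3.75) above it and ZNF426 (3.45) below it. ZNF562 was the seventh, with 1.27 CPM per kb, between ZNF559 (2.17) and ZNF699 (0.602). ZNF560 in KO cells thus stood at the level of its neighbours, and ZNF562 still under most of them on this scale, which divides by its long transcript of 12639 bases.

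Over all 15916 tested genes, 1.34% were called higher in KO cells, 1.96% were called in either direction and 54.7% had libraries that did not overlap between the groups. Among the 9 tested members the calls were those of ZNF560 and ZNF562, and 6 had libraries that did not overlap. These counts are a description and nothing is read from them, since this contrast led to the choice of the genes. The median log2 fold change of the 9 was −0.05. In the same libraries the summed neuroectoderm markers were 1010 and 1020 CPM in WT cells and 1310 and 1330 CPM in KO cells. Of the 6 tested, 5 had positive log2 fold changes and 1 was called higher. The summed mesoderm markers were 125 and 129 CPM in WT cells and 76.8 and 77.1 CPM in KO cells. Of the 8 tested, 4 had positive log2 fold changes and 1 was called lower, with a median of 0.08. The part of these markers in the members' difference was not tested. In bulk libraries, fewer cells that express a gene and less RNA per cell cannot be told apart.

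The genes around the cluster were not part of the choice and could be tested. Of the 77 other genes of the table within 1 Mb of the span, 51 were tested and none was called in KO against WT by edgeR, against 1.96% of all tested genes. There were 12 with an unadjusted p under 0.05 (23.5%, against 17.6% of all tested genes), and DESeq2 called 4 of 49 with an adjusted p (8.16%, against 5.98% of all genes with one). The median log2 fold change was −0.04, and 50 of the 51 values were under 1 in size. Among genes named after their values were seen, the lowest value was −0.52 (S1PR5) and the highest 2.49 (ANGPTL6, SE 1.08, edgeR adjusted p = 0.26), a gene with 2 and 1 counts in the WT libraries and 4 and 16 in the KO libraries. ZNF317, the nearest tested zinc-finger gene on the side of ZNF699, gave 0.06 (SE 0.12, edgeR adjusted p = 0.823), and FBXL12, beyond ZNF846, gave −0.25 (SE 0.11, edgeR adjusted p = 0.261). Inside the span, ZNF561-AS1 gave −0.46 (SE 0.22, edgeR adjusted p = 0.313) and the divergent transcript of ZNF426, ZNF426-DT, −0.38 (SE 0.52, edgeR adjusted p = 0.755).

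**Figure D2:**
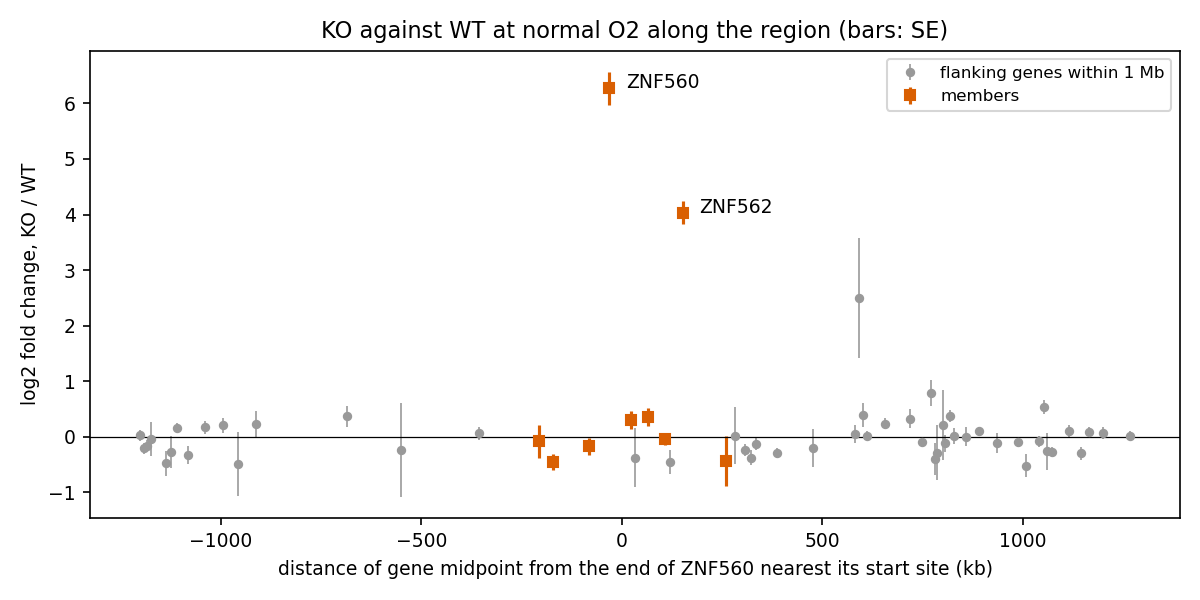
Log2 fold change of KO against WT at normal O2 along the region, with the distance of each gene's midpoint in kb from the upstream end of ZNF560. Squares are the 9 tested members, circles the 51 tested flanking genes and bars the SE. ZNF560 (6.27) and ZNF562 (4.04) stand above the genes between and around them, and the next highest point, ANGPTL6 (2.49), has a wide bar.

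The genes that work with KRAB zinc-finger proteins were also tested in KO against WT. Of 29 tested members of this list, 1 rose and none fell (3.45%, against 1.96% of all tested genes), with a median log2 fold change of 0.01. The gene that rose was CHD3, a chromatin remodeller of the NuRD complex. It was at 66.5 ± 5.66 CPM in WT cells and 116 ± 1.92 CPM in KO cells (SD, n = 2). Its log2 fold change was 0.81 (SE 0.12, edgeR adjusted p = 0.0054). Within the list, 9 genes had an unadjusted p under 0.05 (31%, against 17.6% of all tested genes). DESeq2 called 3 of the 29 (10.3%, against 5.98% of all genes with an adjusted p). TRIM28, the corepressor that KRAB domains bind, had a log2 fold change of 0.06 (SE 0.09, edgeR adjusted p = 0.768), and SETDB1, the histone H3 methyltransferase that TRIM28 recruits, of 0.00 (SE 0.09, edgeR adjusted p = 0.999). UHRF1 and DNMT1, which maintain DNA methylation, had log2 fold changes of 0.41 (edgeR adjusted p = 0.0526) and 0.23 (edgeR adjusted p = 0.26). Of the 486 other ZNF genes tested, 6 rose and 0 fell (1.23%), with a median log2 fold change of 0.10.

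KO cells with NAC were then compared with the KO cells at normal O2 that had no listed agent, called untreated here. This contrast was not used to choose the genes, but its control libraries were, and they also serve the comparison with 5% O2. ZNF560, ZNF561, ZNF559, ZNF266 and ZNF699 rose with NAC and no member fell, which is 5 of 9 higher, against 23.8% of all tested genes called higher and 44.6% called in either direction. All 9 fold changes were positive, with a median of 0.68 on the log2 scale, against 0.02 over all genes. The libraries lay apart and higher with NAC for 8 of the 9, against 36.3% of all tested genes. None had a log2 fold change over 1, with 9.02% of all genes past that size and an unadjusted p under 0.05. Without NAC replicate 1 the value of ZNF121 was −0.03. The other 486 ZNF genes had 157 higher and 73 lower (47.3%), with a median of 0.27.

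ZNF560 was at 9.62 and 10.2 CPM in untreated KO cells and at 16.8 and 13.4 CPM with NAC. Both NAC libraries lay above both untreated ones, and the log2 fold change was 0.61 (SE 0.18, edgeR adjusted p = 0.0175). ZNF562 was at 17.2 and 14.8 CPM in untreated KO cells and at 22.03 and 17.3 CPM with NAC, with a log2 fold change of 0.30 (SE 0.17, edgeR adjusted p = 0.174), which did not pass the test. Against WT cells, the count ratio of the KO cells with NAC was 122 for ZNF560 (exact 95% interval 64.2 to 268) and 20.5 for ZNF562 (exact 95% interval 16.1 to 26.5). Neither gene was therefore near its WT level with NAC.

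ZNF559 went from 9.87 and 10.4 CPM to 17.6 and 18.5 CPM, with a log2 fold change of 0.83 (SE 0.14, edgeR adjusted p = 6e-04). ZNF561 went from 48.5 and 49.02 CPM to 78.9 and 79.0 CPM, with a log2 fold change of 0.70 (SE 0.09, edgeR adjusted p = 0.000113). ZNF266 went from 12.6 and 14.1 CPM to 20.9 and 21.8 CPM, with a log2 fold change of 0.68 (SE 0.15, edgeR adjusted p = 0.00303). In these 3 genes the gap between the groups was wider than the spread within them. ZNF699 went from 4.23 and 3.91 CPM to 7.94 and 5.98 CPM, with a log2 fold change of 0.78 (SE 0.29, edgeR adjusted p = 0.0466), close to the threshold. ZNF121 was at 36.8 and 36.9 CPM without NAC and at 46.1 and 36.3 CPM with it, and ZNF426 at 25.1 and 23.95 CPM without it and at 29.9 and 25.3 CPM with it. Neither passed the test (edgeR adjusted p = 0.434 and 0.413), and nor did ZNF846 (log2 fold change 0.70, SE 0.45, edgeR adjusted p = 0.241), with 41 and 45 counts in the NAC libraries.

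The members' transcripts are poor in G and C, at 39.2% to 45.7% against a median of 49% over the tested genes, and the fold changes with NAC fell with GC content across 15283 genes (Spearman rho −0.49 as a description across genes). With the trend over GC content and length removed, 4 of the 9 were called higher, against 13.9% of all tested genes in that fit, with a median of 0.52. In that fit ZNF560 had a log2 fold change of 0.17 (edgeR adjusted p = 0.517) and ZNF699 of 0.71 (edgeR adjusted p = 0.103), and ZNF562, with 0.57 (edgeR adjusted p = 0.0236), was called. ZNF559, which had the highest value of the 9 before that step, had 0.47 after it (edgeR adjusted p = 0.0237, with a range of 1.23e-05 to 0.0322 over all alternatives run), under the values of ZNF699, ZNF266, ZNF562, ZNF561 and ZNF846. Over all alternatives run, the adjusted p ran from 0.00417 to 0.562 for ZNF560, from 0.00829 to 0.195 for ZNF699 and from 0.0206 to 0.652 for ZNF562. Without KO replicate 1, KO replicate 2 or NAC replicate 1 in turn, 3 members were called and ZNF560 had edgeR adjusted p-values of 0.11, 0.0733 and 0.0931. ZNF562 was called without NAC replicate 2 (log2 fold change 0.46, edgeR adjusted p = 0.0373). In the NAC libraries the summed embryonic stem cell markers were 6750 and 6390 CPM (7480 and 7250 without NAC). Of the 15 markers in that sum, 4 were called higher and 7 lower with NAC. The sum includes DNMT3B, whose mean was 2504 CPM without NAC and 1277 CPM with it. The summed neuroectoderm markers were 770 and 828 CPM (1310 and 1330) and the fibroblast markers 937 and 547 CPM (602 and 628). The part of these markers in the members' rise was not tested.

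**Figure D3:**
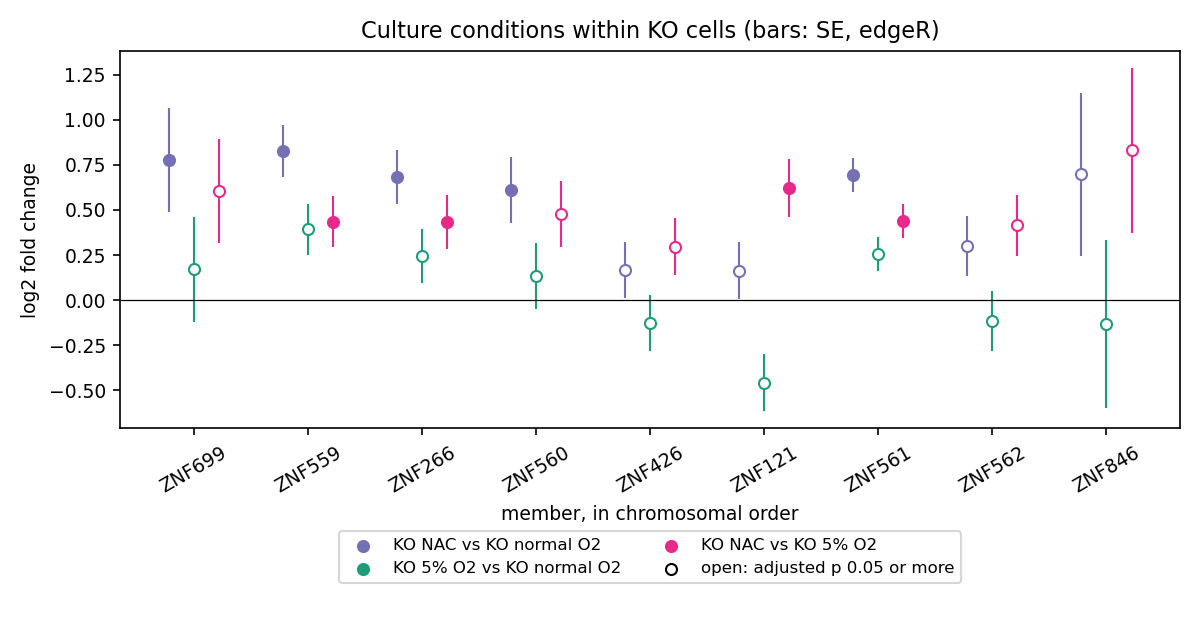
Log2 fold changes of the 9 tested members in the 3 comparisons of culture conditions within KO cells, with members in chromosomal order. Bars are the SE from edgeR, filled points passed an adjusted p of 0.05 and open points did not. The values for NAC lie above 0 for every member, and those for 5% O2 against normal O2 lie on both sides of 0, from −0.46 (ZNF121) to 0.39 (ZNF559).

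Of the 51 flanking genes, 6 rose and 17 fell with NAC (45.1%, against 44.6% of all tested genes), with a median log2 fold change of −0.25. Those that fell included RAVER1, an RNA-binding protein (−1.08), DNMT1, the maintenance DNA methyltransferase (−1.07), and PDE4A, a cAMP phosphodiesterase (−1.04). PPAN and KRI1, both with roles in ribosome biogenesis, fell as well (−0.99 and −0.93). MUC16, a large mucin gene, had 14 and 6 counts in the untreated KO libraries and 0 in both NAC libraries (log2 fold change −6.26, SE 1.75). Its level was thus near the edge of detection without NAC as well. With the GC and length trend removed the split was 9 higher and 9 lower, with a median of 0.07. That is 17.6% each, against 13.9% of all tested genes higher and 11.9% lower in that fit. The direction of the flanking list therefore depended on that step. Inside the span ZNF561-AS1 rose by 0.83 (SE 0.22, edgeR adjusted p = 0.00948).

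Among the 29 KRAB cofactors, 7 rose and 13 fell with NAC (69%, against 44.6% of all tested genes), with a median of −0.28. TRIM28 fell from 1750 ± 92.7 to 1104 ± 70.2 CPM (SD, n = 2), a log2 fold change of −0.66 (SE 0.09, edgeR adjusted p = 0.000134). CHD3 (−1.73 on the log2 scale), EHMT1, a histone H3 methyltransferase (−1.11), CHD4, another NuRD remodeller (−1.05), and UHRF1 (−1.03) fell as well. CBX3, which encodes heterochromatin protein HP1 gamma, rose (1.01). SETDB1 gave −0.10 (SE 0.09, edgeR adjusted p = 0.392). With the trend removed, 4 rose (13.8%, against 13.9% of all tested genes in that fit) and 12 fell (41.4%, against 11.9%).

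At 5% O2 against normal O2 within KO cells, none of the 9 was called by edgeR, against 7.81% of all tested genes (3.68% higher and 4.13% lower). None was past a log2 fold change of 1 either, against 2.02% with an unadjusted p under 0.05. There were 3 members with an unadjusted p under 0.05, ZNF121, ZNF559 and ZNF561, against 24.8% of all tested genes. DESeq2 called 1, ZNF121 (adjusted p = 0.0317, with a range of 0.00648 to 0.447 over all alternatives run), against 18.5% of the genes to which it gave an adjusted p. ZNF121 was at 30.98 and 22.5 CPM at 5% O2, both under the 36.8 and 36.9 CPM at normal O2, with a log2 fold change of −0.46 (SE 0.16, edgeR adjusted p = 0.0963). ZNF559 was at 12.9 and 13.7 CPM at 5% O2 (log2 fold change 0.39, SE 0.14, edgeR adjusted p = 0.112) and ZNF561 at 61.5 and 54.9 CPM (0.26, SE 0.09, edgeR adjusted p = 0.112). These were the 3 of 9 members whose libraries did not overlap between the groups, against 60.9% of all tested genes, and none passed the correction in edgeR's fit of all libraries. ZNF121 did pass it with edgeR when no filter on low counts was used (adjusted p = 0.00648) or only the 2 groups were fitted (adjusted p = 0.0232).

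ZNF560 was at 11.9 and 9.82 CPM at 5% O2, which overlaps its untreated KO libraries, with a log2 fold change of 0.13 (SE 0.18, edgeR adjusted p = 0.713). ZNF562 was at 16.2 and 13.3 CPM, with a log2 fold change of −0.12 (SE 0.17, edgeR adjusted p = 0.727). Against WT cells the count ratio was 87.7 for ZNF560 (exact 95% interval 45.9 to 192) and 15.3 for ZNF562 (exact 95% interval 12 to 19.8), so both stayed far above WT at low O2. ZNF266, ZNF699, ZNF426 and ZNF846 had log2 fold changes between −0.13 and 0.25, with edgeR adjusted p-values of 0.344 to 0.895. The order of levels per kb had ZNF561 first (12.8) and ZNF560 the third (3.85). From ZNF266 (4.45) down to ZNF559 (2.85) the range of 1 SD around each mean overlapped that of the next gene.

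Around the members, of the 51 flanking genes none rose at 5% O2 and 2 fell (3.92%, against 7.81% of all tested genes), KRI1 (log2 fold change −0.58, edgeR adjusted p = 0.024) and DNMT1 (−0.38, edgeR adjusted p = 0.0417). Among the KRAB cofactors 2 rose and 4 fell at 5% O2 (20.7%). CBX3 and SUMO2, a modifier that KRAB repression uses, rose (0.47 and 0.39), and CHD3, EHMT1, UHRF1 and DNMT1 fell (−0.47, −0.47, −0.46 and −0.38). With the GC and length trend removed, none of the 51 flanking genes and none of the 29 cofactors was called by edgeR. In that fit only 1.07% of all tested genes were called higher and 0.421% lower. Of the 486 other ZNF genes 7 rose and 11 fell (3.70%).

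The comparison of NAC with 5% O2 contrasts no library of the WT and untreated KO groups from which the genes were chosen. Those libraries were in the same fit, however, so they took part in its filter, scaling and estimate of spread. ZNF121, ZNF561, ZNF559 and ZNF266 were higher with NAC and none was lower, which is 4 of 9, against 15.5% of all tested genes called higher and 29.1% in either direction. All 9 log2 fold changes were positive, from 0.30 (ZNF426) to 0.83 (ZNF846), with a median of 0.44 against 0.04 over all genes. The libraries lay apart and higher with NAC for 8 of the 9, against 33.4% of all tested genes, and none was past a log2 fold change of 1, against 4.42%. ZNF121 had the lowest adjusted p after ZNF561, at 46.1 and 36.3 CPM with NAC against 30.98 and 22.5 CPM at 5% O2, a log2 fold change of 0.62 (SE 0.16, edgeR adjusted p = 0.0128). ZNF561 gave 0.44 (SE 0.09, edgeR adjusted p = 0.0051). ZNF560 (0.48, SE 0.18, edgeR adjusted p = 0.0713) and ZNF562 (0.42, SE 0.17, edgeR adjusted p = 0.0853) did not pass the test, although both NAC libraries lay above both libraries at 5% O2.

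These calls depended on single libraries and on the processing. Without 5% O2 replicate 2 none of the 9 was called by edgeR, and without NAC replicate 1 there were 2. With the GC and length trend removed ZNF561 alone was called (log2 fold change 0.35, edgeR adjusted p = 0.0204, with a range of 0.000704 to 0.0758 over all alternatives run). In the fit with the trend removed 8.43% of all tested genes were called higher and 7.85% lower, so 1 of 9 was near that share. In the main fit of this comparison 2 flanking genes were higher and 14 lower (31.4%, against 29.1% of all tested genes), among them CDKN2D (−1.07), HNRNPM (−0.78) and RAVER1 (−0.74), with ICAM1, an adhesion receptor, higher (0.73). Of the KRAB cofactors 3 were higher and 13 lower (55.2%), led by CHD3 (−1.26), CBX5, which encodes HP1 alpha (−0.91), and DNMT3B, a de novo DNA methyltransferase (−0.83). The other ZNF genes had 81 higher and 51 lower (27.2%), with a median of 0.20.

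ZNF560 and ZNF562 were each other's closest match in pattern over the 8 libraries, with a Pearson r of log2 CPM of 0.997. The WT and KO libraries form separate clusters for both genes, so this value rests mainly on that separation. Both genes were chosen for that separation, so a high r followed from the choice and is only a description. Within the 6 KO libraries r was 0.833 for this pair, and its rank among all genes there was not taken. Next for ZNF560 came TRIM4, an E3 ubiquitin ligase (0.997), ZNF723 (0.995), PCDHA7, a protocadherin whose last exons are shared within its cluster (0.994), and CCDC125 (0.980). Next for ZNF562 came TRIM4 (0.994), PCDHA7 (0.994), ZNF723 (0.993) and VSIG1 (0.981). TRIM4 had 0 and 2 counts in the WT libraries and 252 to 549 in the KO libraries, and ZNF723 had 0 in both WT libraries and 112 to 260 in the KO libraries. PCDHA7 had 14 counts in each WT library and 245 to 331 in the KO libraries, so these 3 genes shared the step between WT and KO cells. Within the 6 KO libraries r with ZNF560 was 0.742 for TRIM4, 0.761 for ZNF723, 0.66 for PCDHA7 and 0.205 for CCDC125. There r with ZNF562 was 0.764 for TRIM4, 0.567 for ZNF723, 0.472 for PCDHA7 and 0.483 for VSIG1. CCDC125 and VSIG1 had 0 counts in the WT libraries and 10 to 43 in the KO libraries. Ranked by Spearman's rho in place of Pearson's r, none of the 5 genes was shared with either list.

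**Figure D4:**
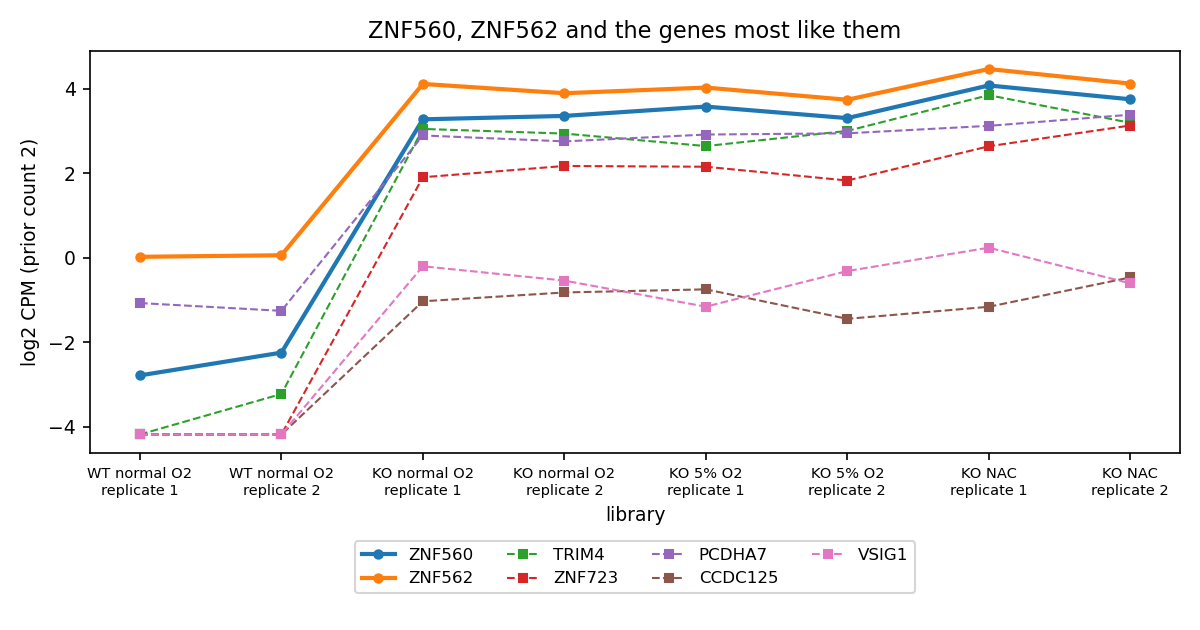
Log2 CPM (prior count 2) of ZNF560, ZNF562 and the genes whose pattern was most like theirs, in each of the 8 libraries. Lines join the values of a gene across libraries and carry no order of replicates. Every gene steps up between the 2 WT libraries and the 6 KO libraries, and in the KO libraries ZNF560 stays between 3.27 and 4.08.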

How the data were processed

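RNA of WA26 hESCs was sequenced by the authors. They cleaned the reads with trim-galore, mapped them with HISAT2 (hg38) and summarised them by gene with featureCounts. The values deposited by the authors are raw counts per gene, with no normalization, and the annotation behind the counting is not given in the sources used here. In its default mode featureCounts is blind to strand and drops multi-mapping reads and reads shared by overlapping genes, so antisense, readthrough and near-identical zinc-finger genes can be miscounted.

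Of the 12 labelled samples, 8 were analysed, in 4 groups of 2. The 4 WT libraries with NAC or at low O2 were not analysed here, so no effect of either treatment in WT cells is given. Totals ran from 31236968 to 41639350 counts. A figure legend of the study calls the replicates at low and normal O2 biological, but the labels do not say whether they were separate cultures. The p-values measure only the spread between these libraries, which may be technical. Replicates differed by more than counting noise in every group (chi-square per degree of freedom 9.79 to 32.4).

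Genes were filtered with filterByExpr (minimum count 10, 15916 of 28278 kept), normalized by TMM and fitted with edgeR 4.0.16 in R 4.3.3, with 1 term per group. The quasi-likelihood test was used with Benjamini-Hochberg adjustment over all tested genes and a threshold of 0.05. CPM were computed from TMM-scaled totals. The biological coefficient of variation was 13.7%. Count ratios carry exact binomial intervals. DESeq2 1.42.0, other scalings, other filters, a replicate block, a fit of the compared groups only, each library left out, removal of the trend over GC content and length, and calls by a log2 fold change over 1 with an unadjusted p under 0.05 were alternatives. Positions and promoters are from RefSeq (GRCh38.p14), and exon overlap, transcript length and GC content are from GENCODE.

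The members and the gene lists were chosen with earlier results of these data known. Named are all members and UBQLN1, up to 6 called genes by size of change from the flanking genes and from the KRAB cofactors in each comparison, the 5 genes with the highest Pearson r to ZNF560 and to ZNF562, and other genes where the text says what they are named for. TRIM28, SETDB1, UHRF1, DNMT1, ZNF317, FBXL12, ZNF561-AS1 and ZNF426-DT are named beyond that rule where it did not call them, for their role or position. KRAB cofactors were a list of 30 genes in the table, and other ZNF genes were those named ZNF with digits and at most 1 letter.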

Additional observations from a re-analysis of the deposited data

How the results depend on the processing

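The members' log2 fold changes in the 3 comparisons within KO cells were recomputed 347 times over all alternatives. Of these, 302 kept their side of the threshold, 36 lost a call and 9 gained one. The sign changed in 11, of which 10 were at 5% O2, and 0 of those 11 passed the test. For NAC against untreated KO cells, 5 members higher became 0 by a log2 fold change over 1 with an unadjusted p, and 3 to 6 with 1 library left out, where the median log2 fold change was 0.552 to 0.652 and 0 were lower. For 5% O2, 0 members lower became 1 (ZNF121) with DESeq2, with no filter on low counts and with only the 2 groups compared. With 1 library left out there were 0 higher and 0 lower, and the median, 0.133 in full, ran from −0.27 (without 5% O2 replicate 1) to 0.262. For NAC against 5% O2, 4 higher became 2 with RLE scaling, 1 with the GC and length trend removed, 1 with only the 2 groups compared, 0 by the log2 fold change over 1 and 0 to 4 with 1 library left out, where 0 were lower and the median ran from 0.347 to 0.613. Removing the trend together with a replicate block, a step chosen after seeing the data, gave 2 higher. The cause of these shifts was not tested. For KO against WT the median of the members, −0.05, ran from −0.066 to 0.227 (without WT replicate 2).

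Replicate numbers did not pair the libraries (correlations of same-numbered deviations −0.023 to 0.082). With the replicate block 4 members were higher with NAC, 3 with NAC against 5% O2 and 0 at 5% O2, and the medians were 0.681, 0.441 and 0.124. ZNF699 with NAC (adjusted p = 0.0548) and ZNF266 with NAC against 5% O2 (adjusted p = 0.055) lost their calls.

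Counts of all genes called moved more. KO against WT gave 213 higher and 99 lower, against 545 and 315 with DESeq2, 782 and 470 with no filter, 738 and 386 with only the 2 groups and 29 to 33 and 34 to 49 with 1 library left out. At 5% O2 586 higher and 657 lower became 171 and 67 with the trend removed, 1466 and 1543 with only the 2 groups, and 29 to 238 and 5 to 275 with 1 library left out. NAC against untreated KO cells gave 3785 and 3315, and 2215 and 1894 with the trend removed. NAC against 5% O2 gave 2469 and 2166, 1341 and 1249 with the trend removed, and 637 to 2900 and 717 to 2568 with 1 library left out. With at least 10 counts required in every library ZNF560 left the table, since its WT counts were 3 and 6. Within 0.5 Mb, 0 of 19 flanking genes were called in KO against WT by edgeR. With 2 libraries a group, 4 residual degrees of freedom and WT counts under 10, the size of the ZNF560 difference is known only roughly. Its wide interval covers counting error alone. The spread between libraries or clones and the choice of the gene from this contrast are not in it.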
